A study of Homo sapiens with 6 samples.

Results

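Iron handling in a cell rests on a small set of genes for uptake, storage, export and control, and 10 genes were examined here: TFRC, SLC11A2, FTH1, FTL, SLC40A1, IREB2, ACO1 and the metallothionein genes MT2A, MT1E and MT1X. They were chosen by name, with earlier results of these data known, from the 58721 genes of the count table, and all 10 were found in it. The cells were A549, an established human lung adenocarcinoma line grown in DMEM with fetal bovine serum. Their labels give overexpression of KAT8 (also called MOF, the lysine acetyltransferase of histone H4), either as wild type (WT) or with the R98W substitution, which lies in the Tudor-knot domain that the study concerns. Polyadenylated RNA was sequenced from 3 WT and 3 R98W libraries of 90007121 to 110152936 counts. By the labels both groups thus share overexpression of KAT8, which the KAT8 counts of 1 WT library go against. The vector, the promoter, the time after its introduction, the state of the chromosomal KAT8 gene and whether the cells were 1 clone or a pool are not given in the labels, and cells without overexpression were not analysed here. Nothing in the labels says that the replicates were separate cultures, so every p-value rests on library-to-library spread that may be purely technical.

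The library labelled WT replicate 1 stood apart in KAT8 itself, at 12.2 CPM (counts scaled to library totals adjusted by TMM, the depth scaling of edgeR) against 195 and 184 CPM in WT replicates 2 and 3 and 166 to 236 CPM in R98W, so each member is also given without it, and WT replicate 1 names that library by its label only. Of the 9 epithelial and A549 markers, KRT8 stood at 4203 to 4515 CPM, and KRT18, AKR1B10, AKR1C1, ALDH1A1 and ALDH3A1 were at 2713 CPM or more in every library. EPCAM was the lowest, at 7.10 ± 1.1 CPM in WT, and fell to 3.92 ± 0.717 CPM in R98W (SD, n = 3; edgeR adjusted p = 0.000151). In all 2 of these markers were called higher and 3 lower, and their part in the results was not tested. Among the 9 markers of leukocytes, fibroblasts and endothelium, COL1A1 was the only one above 1 CPM, at 10.0 to 14.2 CPM. Of the 20713 genes tested by the edgeR quasi-likelihood test, 34.8% were called at a Benjamini-Hochberg adjusted p under 0.05, 16.2% as higher and 18.5% as lower in R98W. Among the 3444 genes over 64 CPM, a level that TFRC, both ferritin genes, SLC40A1, IREB2 and ACO1 exceed, 40.4% were called higher and 9.41% lower, and their median log2 fold change stood at 0.13, against a median near 0 over all tested genes.

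Most iron enters a growing cell as transferrin bound to the transferrin receptor TFRC, and it leaves the endosome through the divalent metal transporter SLC11A2. Spare iron is held in the shell of ferritin, built from the heavy chain FTH1, which oxidises iron, and the light chain FTL, and it can leave the cell through ferroportin, SLC40A1. In iron-poor cells the iron regulatory proteins, encoded by ACO1 and IREB2, bind a hairpin called the iron-responsive element. Bound near the start of an mRNA it blocks translation, and bound after the coding region it protects the mRNA from decay. Metallothioneins are small cysteine-rich proteins that bind zinc, copper and cadmium, and the zinc sensor MTF1 drives their genes through metal response elements.

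The hairpins that tie these mRNAs together can be read in the reference transcripts. A search of the GENCODE 29 principal transcripts looked for a C, 5 bases, the loop CAGTGN and 5 bases pairing with the first 5, G-T pairs allowed. A match lay in 21 of 18706 5′ untranslated regions (0.112%) and in 104 of 18923 3′ untranslated regions (0.55%). Among the members it was found in the 5′ region of FTH1, FTL and SLC40A1 and 4 times in the 3′ region of TFRC. The sites are shown because the counts below compare mRNAs that carry the same loop at opposite ends, and capitals mark the loop.
FTH1, chr11:61967574-61967602, minus strand: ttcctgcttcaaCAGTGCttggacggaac
FTL, chr19:48965335-48965363, plus strand: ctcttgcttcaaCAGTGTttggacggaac
SLC40A1, chr2:189580661-189580689, minus strand: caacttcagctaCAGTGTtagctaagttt
TFRC, chr3:196050979-196051007, minus strand: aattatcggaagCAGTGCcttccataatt
TFRC, chr3:196050575-196050603, minus strand: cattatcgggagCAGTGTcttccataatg
TFRC, chr3:196050510-196050538, minus strand: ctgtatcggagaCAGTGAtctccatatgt
TFRC, chr3:196050463-196050491, minus strand: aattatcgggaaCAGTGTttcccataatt
All positions are on hg38 and each sequence is written as in the RNA, with T for U. A match describes letters and pairing only, and no match was found in the principal transcripts of SLC11A2 with this pattern.

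Of the 9 members that passed the filter on low counts, 3 were called higher in R98W (TFRC, SLC40A1 and IREB2), 1 was called lower (MT1X) and 5 were not called, against 16.2% higher and 18.5% lower over all tested genes. MT1E did not pass the filter. The median log2 fold change of the 9 was 0.13. In 6 of the 9 all values of one group lay beyond those of the other, and 45.6% of all tested genes had no overlap.

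**Figure D1:**
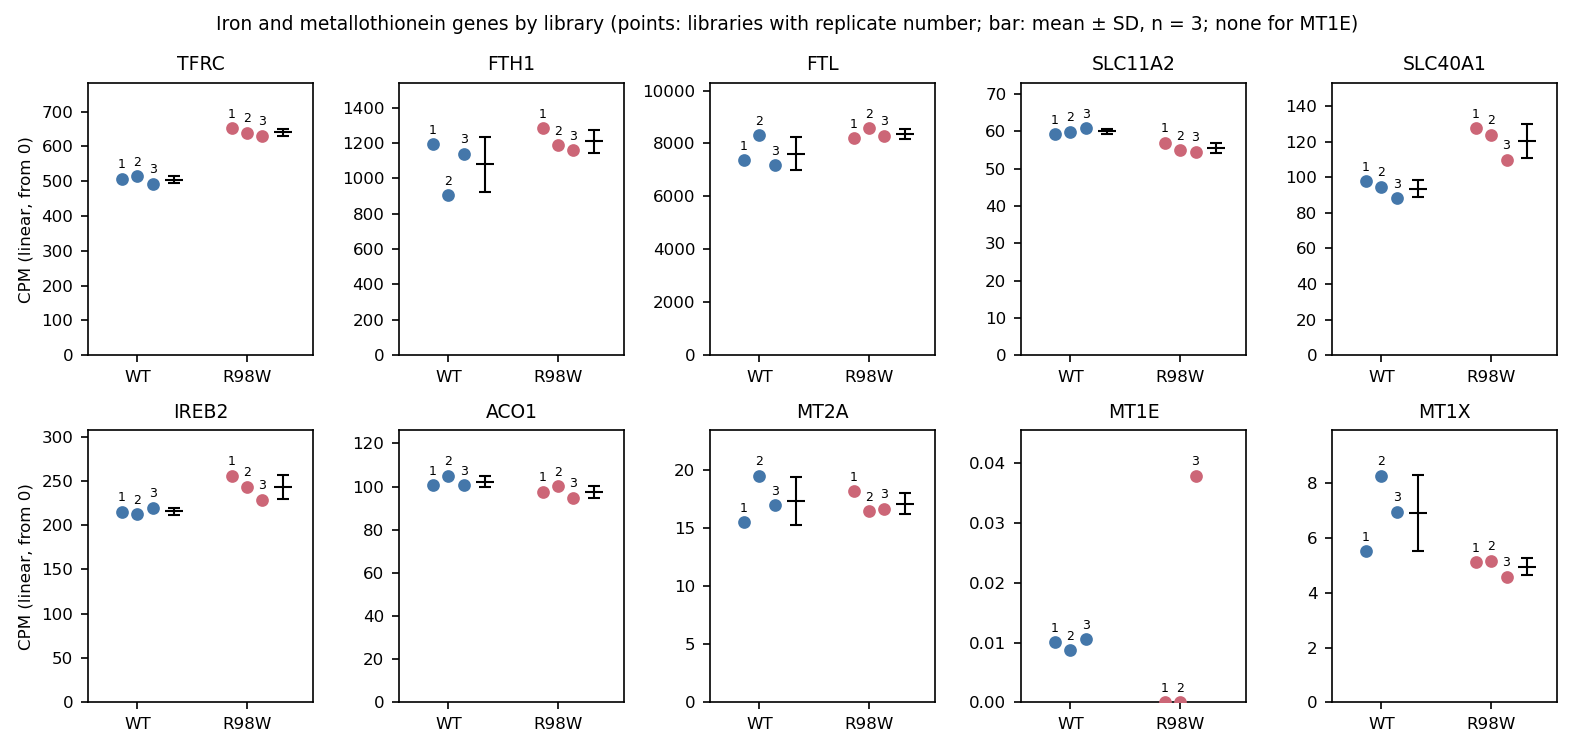
CPM of the 10 members in each library (points, numbered by replicate) on linear axes from 0, with the mean ± SD of 3 libraries as a bar. TFRC, SLC40A1 and IREB2 lie higher in R98W and MT1X lower, while MT1E stays at or below 0.04 CPM.

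TFRC, the receptor for iron-loaded transferrin, was higher in every R98W library. TFRC (ENSG00000072274, chromosome 3, 196027183 to 196082189, minus strand) stood at 507, 514 and 493 CPM in WT replicates 1 to 3 and at 652, 639 and 631 CPM in R98W replicates 1 to 3. The groups were far apart compared with the spread within each. The mean rose from 504 ± 10.8 to 641 ± 10.3 CPM (SD, n = 3), a rise of 27.0% and 0.35 ± 0.06 on the log2 scale (SE; edgeR adjusted p = 0.000184). With the library labelled WT replicate 1 set aside it was 0.34 (edgeR adjusted p = 0.000528). In a fit that removes the trend with expression level in each library the TFRC value was 0.15 (edgeR adjusted p = 0.0411).

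SLC11A2, the transporter that passes iron across the endosomal membrane, did not follow TFRC. Its values (ENSG00000110911, chromosome 12, 50979401 to 51028566) were 59.3, 59.9 and 60.8 CPM in WT and 57.0, 54.9 and 54.6 CPM in R98W. Every R98W library was a little under every WT library, yet the difference missed the threshold, at -0.11 ± 0.06 on the log2 scale (SE; edgeR adjusted p = 0.19). With the library labelled WT replicate 1 set aside the SLC11A2 value was -0.13 (edgeR adjusted p = 0.156).

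Ferritin mRNAs were the most abundant of the set, and neither chain was called. FTL (ENSG00000087086, chromosome 19, 48965301 to 48966878) stood at 7369.6, 8318 and 7169 CPM in WT and at 8191, 8570.0 and 8289 CPM in R98W. WT replicate 2 lay among the R98W libraries, so the groups overlapped. The log2 fold change of FTL was 0.13 ± 0.06 (SE; edgeR adjusted p = 0.115), and 0.10 (edgeR adjusted p = 0.316) with the library labelled WT replicate 1 set aside. The call of FTL hung on other settings: without WT replicate 2 it was 0.19 (edgeR adjusted p = 0.00483), after a correction for GC content 0.23 (edgeR adjusted p = 0.00382), and after the expression-level correction -0.13 (edgeR adjusted p = 0.0855), with the direction turned.

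FTH1, the iron-oxidising heavy chain (ENSG00000167996, chromosome 11, 61959718 to 61967660), stood at 1194, 904 and 1139 CPM in WT and at 1283, 1187 and 1158 CPM in R98W. WT replicate 2 was the low library, and WT replicate 1 reached into the R98W range. The log2 fold change stood at 0.16 ± 0.08 (SE; edgeR adjusted p = 0.137). It passed the threshold with the library labelled WT replicate 1 set aside, at 0.23 (edgeR adjusted p = 0.041), and stood at 0.04 (edgeR adjusted p = 0.649) without WT replicate 2 and at -0.05 after the expression-level correction. BEST1, a gene on the other strand that overlaps FTH1, had only 20 to 70 counts per library.

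The FTH1 row held only part of the counts of FTH1 and its annotated pseudogenes. FTH1 has 25 annotated pseudogenes in the table, intronless copies of its mRNA, and together they took 52.6%, 63.6% and 55.2% of the counts of FTH1 plus pseudogenes in WT replicates 1 to 3, and 49.8%, 55.6% and 52.9% in R98W replicates 1 to 3. WT replicate 2, the library with the lowest FTH1, had the highest pseudogene share. FTH1P2 led with a mean of 56980.0 counts per library, followed by FTH1P8 with 37702 and FTH1P20 with 21178, and none of the 14 pseudogenes tested was called by edgeR. With pseudogene counts added to FTH1, a setting chosen after the data were seen, the sum was 2517 ± 28.5 CPM in WT and 2564 ± 107 CPM in R98W (SD, n = 3). Its log2 fold change stood at 0.03 ± 0.06 (SE; edgeR adjusted p = 0.768). The low value of WT replicate 2 was no longer present in the sum, which ran from 2487 to 2543 CPM in WT. How reads that match several copies were assigned is not given in the sources used here, and whether any of these counts came from transcribed pseudogenes was not tested.

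FTL differed from FTH1 in this respect. Its 16 annotated pseudogenes took 0.933% to 1.15% of the summed counts, and adding them left the FTL log2 fold change at 0.13 (edgeR adjusted p = 0.111). The ratio of the chains therefore depended on the counting: FTH1 was 10.9% to 16.2% of FTL in CPM as deposited, and 29.3% to 35.1% of it with pseudogenes on both sides. Both forms are of CPM not scaled for length, and in neither were the groups apart.

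**Figure D2:**
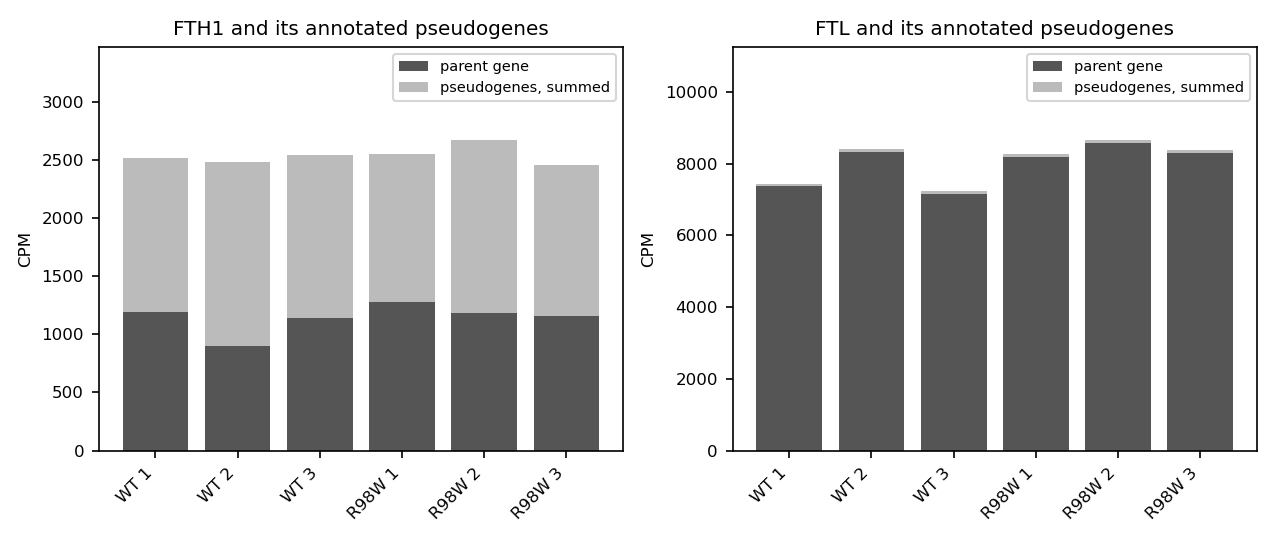
Stacked bars of CPM per library for FTH1 (left) and FTL (right), dark for the parent gene and light for the sum of its annotated pseudogenes, on axes from 0. The light part is 49.8% to 63.6% of the FTH1 bars and near 1% of the FTL bars.

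SLC40A1, the only known exporter of free iron from animal cells, was higher in R98W. SLC40A1 (ENSG00000138449, chromosome 2, 189560579 to 189583758, minus strand) stood at 97.8, 94.8 and 88.3 CPM in WT and at 127.5, 124 and 109.8 CPM in R98W. The lowest R98W library exceeded the highest WT library. The mean rose from 93.6 ± 4.87 to 120.4 ± 9.33 CPM (SD, n = 3), a rise of 28.6% and 0.36 ± 0.07 on the log2 scale (SE; edgeR adjusted p = 0.000559). With the library labelled WT replicate 1 set aside it was 0.38 (edgeR adjusted p = 0.000673), and after the expression-level correction 0.26 (edgeR adjusted p = 0.00641). TFRC and SLC40A1, which carry iron in and out, thus both rose, and each stayed called under all 18 alternatives run.

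Of the iron regulatory protein genes, IREB2 was called higher by a small margin and ACO1 was not called. IREB2 (ENSG00000136381, chromosome 15, 78437431 to 78501456), which encodes the regulator that is degraded when iron is plentiful, stood at 215, 212 and 219.7 CPM in WT and at 256, 244 and 229 CPM in R98W. All R98W libraries were above all WT libraries, R98W replicate 3 by the least. The IREB2 log2 fold change stood at 0.17 ± 0.06 (SE; edgeR adjusted p = 0.0462), just inside the threshold, and it ended in 13 of 18 alternatives. Among them were the one that leaves out the library labelled WT replicate 1, at 0.16 (edgeR adjusted p = 0.086), the GC correction, at 0.10 (edgeR adjusted p = 0.182), and the expression-level correction, at 0.02 (edgeR adjusted p = 0.876).

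ACO1 (ENSG00000122729, chromosome 9, 32384603 to 32454769), which encodes the regulator that doubles as cytosolic aconitase, stood at 100.7, 105 and 100.8 CPM in WT and at 97.6, 100.1 and 94.9 CPM in R98W. The R98W values lay just under the WT values. Its log2 fold change, -0.07 ± 0.06 (SE; edgeR adjusted p = 0.449), was not called and was -0.09 (edgeR adjusted p = 0.339) with the library labelled WT replicate 1 set aside. After the expression-level correction ACO1 was called lower, at -0.17 (edgeR adjusted p = 0.0419). The ratio of IREB2 to ACO1 reads was 2.02 to 2.18 in WT and 2.41 to 2.62 in R98W, and it was not tested. In R98W all IREB2 values lay above WT and all ACO1 values below it, so this ratio could not overlap.

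**Figure D3:**
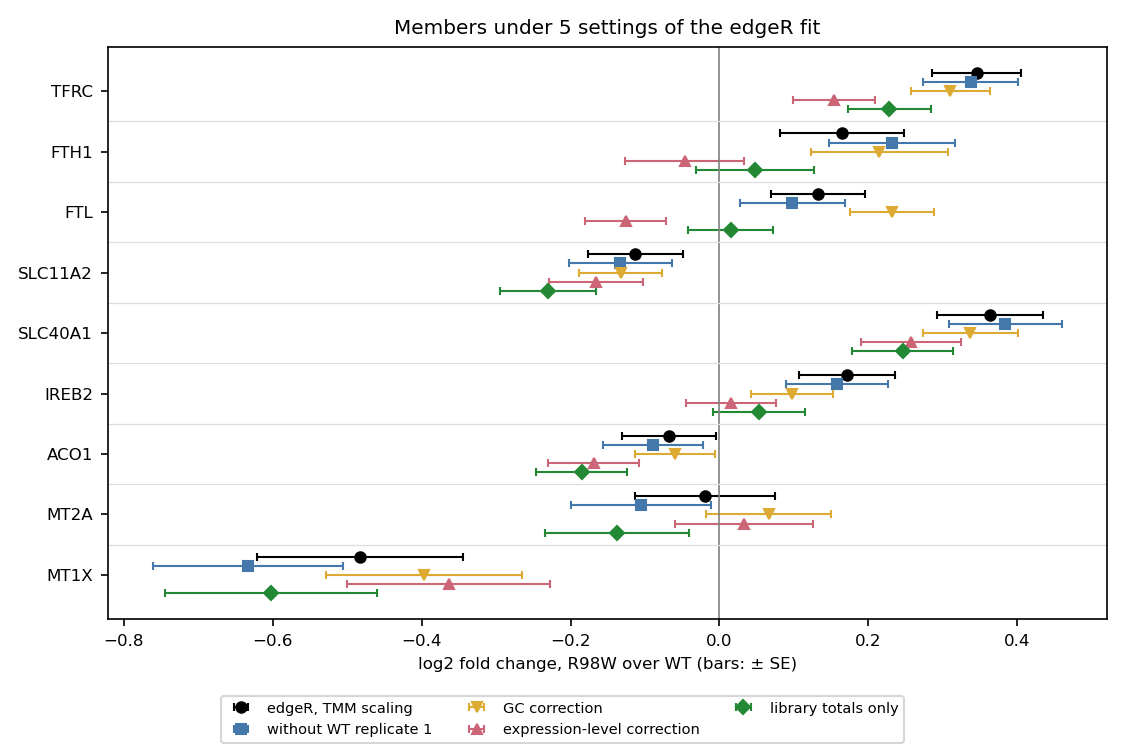
Log2 fold change of R98W over WT ± SE for the 9 tested members under 5 settings of the edgeR fit, with 0 as a grey line. The points of TFRC, SLC40A1 and IREB2 stay above 0 and those of SLC11A2, ACO1 and MT1X below it in all 5. Those of FTH1, FTL and MT2A cross it.

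Metallothionein mRNA in these cells was mostly MT2A and MT1X, and only MT1X of the 2 was called. Both genes lie in the metallothionein cluster on chromosome 16, MT2A at 56608199 to 56609497 and MT1X at 56682424 to 56684196, with MT1E between them at 56625475 to 56627112. Together MT2A and MT1X made up 90.2% to 93.2% of the summed metallothionein CPM in WT libraries and 95.4% to 96.3% in R98W libraries.

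The RefSeq promoter table (GRCh38.p14) holds both genes but not MT1E. The core of the metal response element was taken as TGCACNC or TGCGCNC on either strand, counted with overlaps. It was searched in the 250 bases before the RefSeq start. MT2A held 7 matches and MT1X 4. A single match or more was present in 24.8% of the 35116 promoters of that table, 4 or more in 0.37% and 7 or more in 0.0313%. The 3 matches nearest to the start are shown for each gene, since MT1X was called and MT2A was not, and capitals mark the match. A site marked reverse holds the motif on the other strand.
MT2A, chr16:56608568-56608590, plus strand: tgccgcgcTGCACTCcaccacgc
MT2A, chr16:56608522-56608544, plus strand: ggggctttTGCACTCgtcccggc
MT2A, chr16:56608488-56608510, plus strand, reverse: cgcggggcGTGTGCAggcagcgc
MT1X, chr16:56682409-56682431, plus strand: ggggcctcTGCGCCCggccctct
MT1X, chr16:56682384-56682406, plus strand, reverse: gcaggggcGGGTGCAaggacgag
MT1X, chr16:56682340-56682362, plus strand: cgggttgcTGCACCCggcccagg
The nearest match begins 8 bases before the RefSeq start in MT2A and 53 bases before it in MT1X. The GENCODE genes begin earlier than these RefSeq starts, at 56608199 for MT2A and 56682424 for MT1X. By the GENCODE positions the MT2A matches shown lie inside the gene, while the MT1X matches shown lie before it. These letters say nothing of binding in these cells.

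MT1X (ENSG00000187193) stood at 5.52, 8.28 and 6.96 CPM in WT and at 5.12, 5.17 and 4.59 CPM in R98W. All R98W libraries were below all WT libraries, with WT replicate 1 the nearest to them. The mean fell from 6.92 ± 1.38 to 4.96 ± 0.323 CPM (SD, n = 3), and the log2 fold change stood at -0.48 ± 0.14 (SE; edgeR adjusted p = 0.0102). MT1X stood at -0.63 (edgeR adjusted p = 0.000839) with the library labelled WT replicate 1 set aside, at -0.34 (edgeR adjusted p = 0.0635) without WT replicate 2 and at -0.43 (edgeR adjusted p = 0.0538) without R98W replicate 3, so the call ended without either of the last 2 libraries.

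MT2A (ENSG00000125148) stood at 15.5, 19.5 and 16.98 CPM in WT and at 18.2, 16.5 and 16.7 CPM in R98W. The groups overlapped throughout. The log2 fold change of MT2A was -0.02 ± 0.09 (SE; edgeR adjusted p = 0.899), and -0.11 (edgeR adjusted p = 0.433) with the library labelled WT replicate 1 set aside. MT1X was 35.6%, 42.4% and 41.0% of MT2A in WT replicates 1 to 3 and 28.2%, 31.4% and 27.5% in R98W replicates 1 to 3, with no overlap. That ratio is of CPM not scaled for length, and it was not tested.

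MT1E (ENSG00000169715) was all but absent, with 1 count in each WT library and 0, 0 and 4 counts in R98W replicates 1 to 3. A count of 0 allows up to 0.0305 and 0.031 CPM in R98W replicates 1 and 2, taking 3 counts as the limit for counting error alone, and no fold is given.

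The other metallothionein genes were scarce. MT1A, MT1F and MT1G were tested and called lower: MT1A went from 0.668 ± 0.26 to 0.256 ± 0.0555 CPM, MT1F from 0.958 ± 0.497 to 0.368 ± 0.18 CPM and MT1G from 0.59 ± 0.0784 to 0.294 ± 0.074 CPM (SD, n = 3). Their log2 fold changes were -1.38, -1.38 and -1.0 (edgeR adjusted p = 0.00584, 0.012 and 0.0264). With MT1X, 4 of the 5 metallothioneins tested were lower and none higher, with a median log2 fold change of -1.0 against -0.00 over all tested genes. Of the 6476 tested genes under 1 CPM, 10.7% were called lower. MT1F overlapped between the groups, since WT replicate 1 stood at 0.44 CPM beside 0.46 and 0.49 CPM in R98W. With the library labelled WT replicate 1 set aside the count was 3 lower, as MT1G reached an edgeR adjusted p of 0.0525. MT1G also lost its call without WT replicate 2 (edgeR adjusted p = 0.0859), R98W replicate 1 (0.0885) or R98W replicate 2 (0.0807). MT1F lost its call without WT replicate 3 (edgeR adjusted p = 0.121) or R98W replicate 3 (0.069), and MT1A without WT replicate 2 (0.0601). MT1B, MT1H, MT3 and MT4 had 0 counts in every library, MT1M had 6 counts in WT replicate 1 and 0 elsewhere, and MT1HL1 had 1 count in R98W replicate 2. Of the metallothionein pseudogenes, MT1JP and MT1XP1 passed the filter and were not called (edgeR adjusted p = 0.205 and 0.815), and MT1L, MT1DP, MT1CP, MT1IP, MT1P1, MT1P3 and MT2P1 did not pass it. The genes are short and alike in sequence, so the split of reads among them is uncertain.

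**Figure D4:**
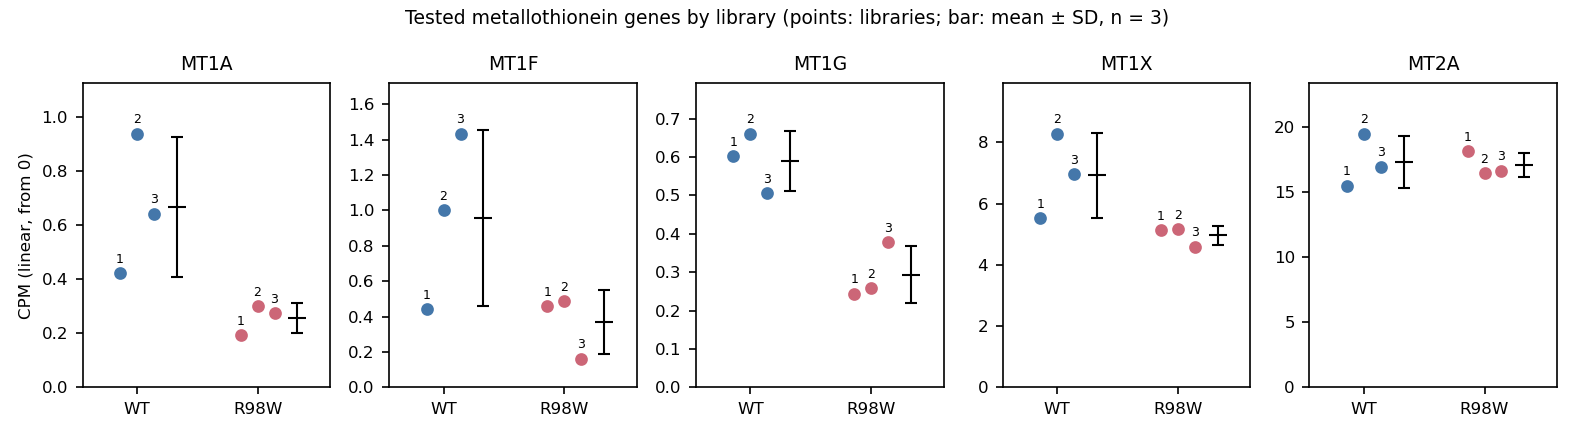
CPM of the 5 tested metallothionein genes in each library (points, numbered by replicate) on linear axes from 0, with the mean ± SD of 3 libraries as a bar. The R98W points lie below the WT points for MT1A, MT1G and MT1X, and overlap with them for MT1F and MT2A.

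Levels of different genes can be set side by side only per length. In CPM per kilobase of exon, WT means (SD, n = 3) were 8677 ± 699 for FTL, 532 ± 75.8 for FTH1, 63.96 ± 1.37 for TFRC, 21.6 ± 1.12 for SLC40A1, 20.0 ± 0.346 for IREB2, 13.5 ± 0.333 for ACO1, 13.3 ± 1.56 for MT2A, 5.92 ± 0.0768 for SLC11A2 and 3.90 ± 0.777 for MT1X. ACO1 and MT2A did not differ beyond their spread, and the lowest SLC40A1 library (20.4) was only just above the highest IREB2 library (20.3). The FTH1 value leaves out its pseudogenes, which took 52.6% to 63.6% of the counts of FTH1 plus pseudogenes in WT. The length used is the union of all annotated exons. On the length of the principal transcript, chosen after the data were seen, IREB2 (34.0 ± 0.589) passed SLC40A1 (27.2 ± 1.42) and MT1X (15.4 ± 3.06) came level with SLC11A2 (14.4 ± 0.187) and ACO1 (13.7 ± 0.337), so the order below TFRC is not firm. MT1E was last either way.

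The genes that act with TFRC at the uptake step mostly were not called. Of 14 tested genes of iron uptake and reduction, 2 were higher and 3 lower, with a median log2 fold change of 0.02. Over all tested genes 16.2% were higher and 18.5% lower, so this list lay near those shares. Besides TFRC, the metal importer SLC39A14 rose by 0.19 (edgeR adjusted p = 0.0208), a call that ended after the expression-level correction (0.05, edgeR adjusted p = 0.552), among others. The metal importer SLC39A8 had -0.25 and the siderophore-binding LCN2 -0.42. The call of LCN2 ended without R98W replicate 3, that of SLC39A8 without WT replicate 3, R98W replicate 2 or R98W replicate 3, and that of SLC39A14 without WT replicate 3, R98W replicate 1 or R98W replicate 2. TF, which encodes transferrin itself, fell from 3.41 ± 0.752 to 1.86 ± 0.319 CPM (SD, n = 3), but it overlaps SRPRB on the same strand. The endosomal iron reductase STEAP3 had 0.16 (edgeR adjusted p = 0.0818) and the receptor partner HFE -0.01 (edgeR adjusted p = 0.919).

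In ferritin turnover 1 of 8 tested genes was higher and 1 lower, against 16.2% and 18.5% over all tested genes. NCOA4, the receptor that delivers ferritin to the lysosome, rose from 240.0 ± 7.41 to 280 ± 14.1 CPM (SD, n = 3), or 0.23 on the log2 scale (edgeR adjusted p = 0.0102). The ubiquitin ligase HERC2, which targets NCOA4, had -0.24 (edgeR adjusted p = 0.0144) and overlaps RPL41P2 on the other strand. The iron chaperones PCBP2 and PCBP1 had 0.16 each (edgeR adjusted p = 0.0511 and 0.0861). On the other strand PCBP2 overlaps MAP3K12 and PCBP1 overlaps PCBP1-AS1. The call of NCOA4 ended without WT replicate 3 or R98W replicate 1, and that of HERC2 without R98W replicate 3 or with the GC correction (-0.16, edgeR adjusted p = 0.083). After the expression-level correction 0 of the 8 were higher and 1 lower, and with the library labelled WT replicate 1 set aside 2 were higher, FTH1 being the other one.

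All 3 tested genes of export were called, against 34.8% of all tested genes. Beside SLC40A1, the haem exporter FLVCR1 rose by 0.38 (edgeR adjusted p = 0.000715). The ferroxidase ceruloplasmin CP, which oxidises exported iron before transferrin binds it, moved the other way. CP stood at 180, 199 and 177 CPM in WT and at 152, 135 and 101.5 CPM in R98W. Its log2 fold change stood at -0.52 ± 0.10 (SE; edgeR adjusted p = 0.000564), and it overlaps HPS3 on the other strand. The other ferroxidases, HEPH and HEPHL1, stayed below 0.1 CPM.

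Genes that control iron were higher in 6 of 12 tested cases and lower in none, with a median log2 fold change of 0.17. Over all tested genes 16.2% were higher and 18.5% lower, and over those above 64 CPM 40.4% and 9.41% with a median of 0.13. These shares are the background for this list, those above and those that follow. FBXL5, the iron-sensing subunit of the ligase that degrades the IREB2 protein, rose from 49.6 ± 1.13 to 64.8 ± 1.47 CPM (SD, n = 3), or 0.39 on the log2 scale (edgeR adjusted p = 0.000129). Its ligase partner SKP1 rose by 0.37 (edgeR adjusted p = 0.000117) and CUL1 by 0.16 (edgeR adjusted p = 0.048). The call of CUL1 ended in 12 of 18 alternatives, among them the fit that leaves out the library labelled WT replicate 1 (edgeR adjusted p = 0.11). The ligand BMP2 rose by 0.79 from a low level of 1.44 ± 0.276 CPM, and the BMP receptor ACVR1 by 0.21. The call of ACVR1 ended without WT replicate 2, WT replicate 3, R98W replicate 1 or R98W replicate 2, with the replicate block (edgeR adjusted p = 0.0533), after the expression-level correction (0.0537) and with library totals only (0.09, adjusted p = 0.362). FBXL5 overlaps FAM200B, and SKP1 overlaps TCF7, on the other strand. HAMP, which encodes the hormone hepcidin that removes ferroportin from the membrane, was at or below 0.04 CPM in every library. After the expression-level correction the count was 3 higher and 1 lower, and with the library labelled WT replicate 1 set aside it was 5 higher and 0 lower.

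Of 11 tested mRNAs listed as carriers of an iron-responsive element, 4 were higher and 0 lower, with a median of 0.16. They were TFRC, SLC40A1, the hypoxia factor gene EPAS1 (0.34, edgeR adjusted p = 0.000618, not called after the expression-level correction, edgeR adjusted p = 0.0617) and the phosphatase gene CDC14A (0.45, edgeR adjusted p = 0.00554). By the search above the element lies at the 5′ end of SLC40A1 and the 3′ end of TFRC, and the pattern found no match in the principal transcripts of EPAS1 or CDC14A, which are on the list from textbook knowledge. With the library labelled WT replicate 1 set aside the count was 6 higher.

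Genes that use iron went both ways. In mitochondrial iron and iron-sulphur cluster supply 9 of 23 tested genes were higher and 5 lower, with a median of 0.06, and with library totals only the balance turned to 6 higher and 7 lower. NUBPL, an assembly factor for complex I, fell from 20.9 ± 0.929 to 11.7 ± 0.196 CPM (SD, n = 3), and the cysteine desulphurase NFS1, which overlaps ROMO1 on the other strand, from 27.6 ± 2.9 to 18.4 ± 1.6 CPM. The scaffold ISCU rose by 0.39, the carrier ISCA1 by 0.42 and ferredoxin reductase FDXR by 0.79 on the log2 scale. Cytosolic cluster assembly had 3 higher and 2 lower of 11, led by GLRX3 (0.45) and CIAO3 (-0.61), which overlaps HAGHL on the other strand. In haem synthesis, transport and breakdown 6 of 19 were higher and 2 lower. UROD, an enzyme of haem synthesis, stood at 22.6, 27.1 and 24.9 CPM in WT and at 10.8, 10.00 and 9.36 CPM in R98W. Its log2 fold change, -1.31 ± 0.09 (SE; edgeR adjusted p = 8.75e-09), had the smallest p of all the listed iron and metal genes. The biliverdin reductase BLVRB rose by 0.79, the porphyrin transporter ABCB6 by 0.73 and the efflux pump ABCG2 by 0.43, while the haem oxygenase HMOX1 had 0.03 (edgeR adjusted p = 0.746). ABCB6 overlaps ENSG00000284820 on the same strand, at a mean of 0.373 CPM.

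Zinc and copper genes, which share the metals that metallothioneins bind, were split. MTF1, the zinc-sensing factor of the metal response element, stood at -0.30 ± 0.08 on the log2 scale (SE; edgeR adjusted p = 0.01), at 21.9, 23.7 and 23.3 CPM in WT and 18.9, 20.2 and 17.01 CPM in R98W. Its call ended with R98W replicate 3 left out (edgeR adjusted p = 0.0642). SLC30A1, the zinc exporter that is another known MTF1 target, rose from 121 ± 15.4 to 172 ± 9.14 CPM (SD, n = 3), or 0.51 on the log2 scale (edgeR adjusted p = 7.27e-05). SLC30A1 thus moved opposite to MT1X, and whether MTF1 had a part in either change was not tested. The importer SLC39A10 rose by 0.60, SLC39A3 had -0.65 and SLC30A5 rose by 0.38, and in the whole list 6 of 21 were higher and 4 lower. Of 14 copper genes 5 were higher and 4 lower. The copper exporter ATP7B, which overlaps FABP5P2 on the other strand, had -0.78. The copper-zinc dismutase SOD1 rose by 0.34 and CUTC, which overlaps COX15 and ENTPD7, by 0.42. SOD1 overlaps ENSG00000273271 on the other strand, at a mean of 0.493 CPM.

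In the list of iron-dependent cell death and lipid peroxide control 8 of 18 tested genes were higher and 0 lower, with a median of 0.23. GPX4, which reduces lipid peroxides, rose from 94.3 ± 5.26 to 127 ± 7.54 CPM (SD, n = 3), or 0.43 on the log2 scale (edgeR adjusted p = 8.66e-05). SAT1 rose by 0.41 and CHAC1 by 0.85. After the expression-level correction 6 were higher and 0 lower.

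**Figure D5:**
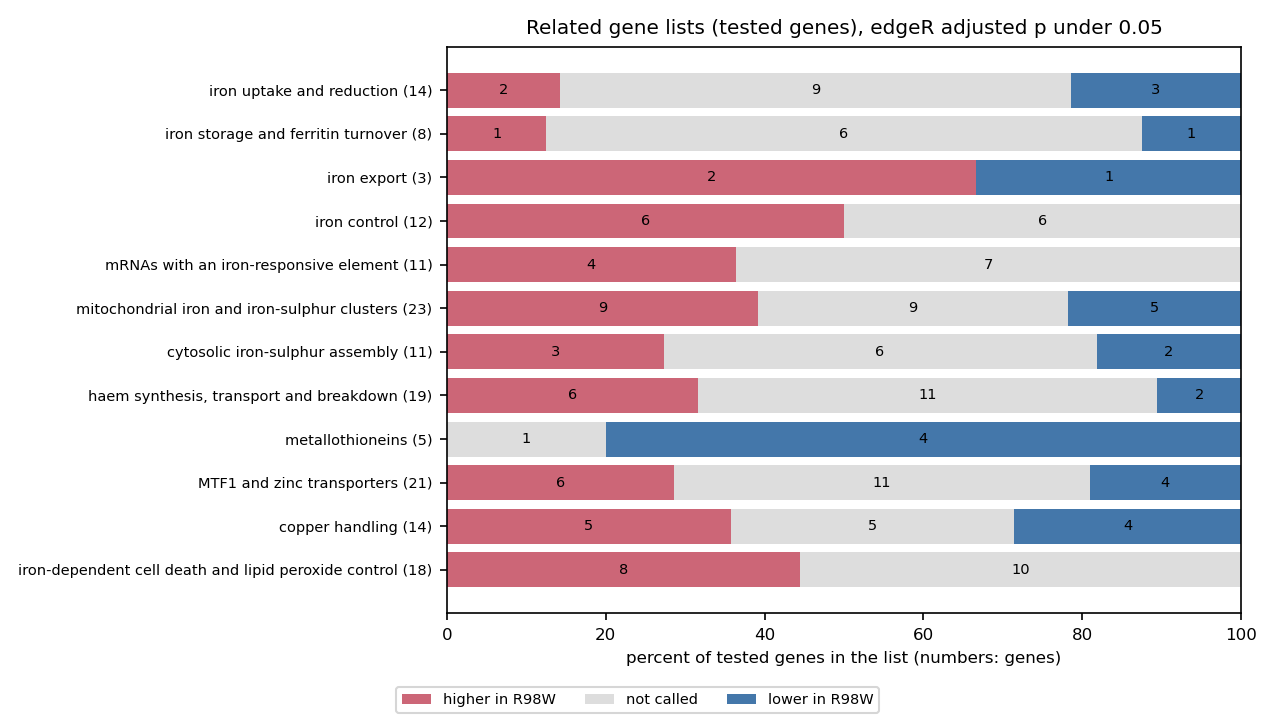
Share of the tested genes of each related list (number tested in brackets) that was higher, not called or lower in R98W by the edgeR test, with gene counts on the bars. Metallothioneins are the list with 4 of 5 lower, and iron control, the element carriers and the cell death list have none lower.

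The genes whose log2 CPM followed each member most closely over the 6 libraries were found among 9045 protein-coding genes of at least 10 CPM. For SLC40A1 the closest was NCOA4, the ferritin receptor named above (Pearson r = 0.999), then SFMBT1. TFRC was nearest to H2BC12 and HTATIP2, IREB2 to RHOU and PJA2, FTL to COPA and PGLS, and FTH1 to RAB27B and BORCS7. MT1X was nearest to HADH and TSPAN6 and MT2A to BRD8 and HSPA5. SLC11A2 was nearest to NCAPG2 and CNOT11, and ACO1 to BABAM2 and MICAL2. These r values ran from 0.987 to 0.999. They describe 6 points in 2 groups, taken from the same libraries and picked as the highest of many, and no p is given.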

How the data were processed

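The authors deposited a table of whole-number read counts for each gene, not normalised, with 1 column per library. CASAVA 1.8, HISAT2 2.1.0, HTSeq 0.11.3 and hg38 are named per the submitters' processing notes, without their roles. The annotation, the strand setting and the treatment of reads with several matches were not stated there or in the labels. Symbols, exons and positions came from GENCODE 29 by gene ID, and promoter sequence from RefSeq.

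From these counts, edgeR 4.0.16 in R 4.3.3 kept genes by filterByExpr (minimum count 10, minimum total 15), scaled libraries by TMM and fitted glmQLFit and glmQLFTest to R98W against WT on all 6 libraries, with no covariate. Adjustment was by Benjamini-Hochberg over all 20713 tested genes, with a threshold of 0.05. Fold changes are log2, R98W over WT. Columns were matched to samples by title. On simulated counts, with 50 genes changed at each size, the pipeline recovered 18% of 1.25-fold, 86% of 1.5-fold and 100% of 2-fold changes. The simulation gave 11 false calls among 20202 unchanged genes. It changed few genes and gave all genes the same spread, whereas 34.8% of tested genes were called in these data. Its rates of recovery and false calls therefore need not hold here. A member that was not called may still have changed by a small amount. The spread between libraries of a group beyond counting error, as edgeR estimates it over all genes, was a coefficient of variation of 10.0%. It may be purely technical.

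The members and lists were chosen with earlier results of these data known, so list counts are descriptions. Named genes were the members, KAT8, all metallothioneins, the 4 of smallest p in each list, the leading ferritin pseudogenes, overlapping genes and the 2 closest genes by correlation. A gene that this rule names is not reported here. Other genes named (STEAP3, HFE, SLC39A14, HEPH, HEPHL1, HAMP, CUL1, ISCU, HMOX1, MTF1) and the marker values were picked after their values were seen. 208 of 209 list entries were found. Alternatives were DESeq2 1.42.0 scaling and test, upper quartile scaling, other filters, each library left out, a replicate block, limma-voom (limma 3.58.1), loess corrections for GC content and expression level and a threshold of 0.01. Scaling by library totals only and the added pseudogene counts were chosen after the data were seen.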

Additional observations from a re-analysis of the deposited data

How the results depend on the processing

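TFRC and SLC40A1 kept their direction and call under all 18 alternatives (log2 fold changes 0.15 to 0.36 and 0.25 to 0.43). IREB2 was called in 5 of 18. It stood at 0.16 with upper quartile scaling or at least 50 counts in 3 libraries, 0.17 with no filter, 0.10 with the GC correction, 0.016 with the expression-level correction and 0.053 with library totals only. At a threshold of 0.01 neither IREB2 (0.17) nor MT1X (-0.48) was called. The expression-level correction gave -0.047 for FTH1, -0.13 for FTL, -0.17 for ACO1 (called) and 0.032 for MT2A. The GC correction gave 0.23 for FTL (called) and 0.066 for MT2A. Library totals alone shift the median of all tested genes to -0.12, and with them SLC11A2 (-0.23) and ACO1 (-0.18) were called lower. Leaving out 1 library gave 0.042 to 0.23 for FTH1, 0.081 to 0.19 for FTL, 0.13 to 0.21 for IREB2, -0.11 to 0.065 for MT2A and -0.63 to -0.34 for MT1X. The count of lower members, 1, was 0 to 1 without 1 library, 2 with the expression-level correction, 3 with library totals and 0 at a threshold of 0.01. Genes called higher numbered 3364, 1708 with library totals (lower 3839 and 5343) and 2143 at 0.01. The causes were not tested.

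With the replicate number as a block the IREB2 value was 0.17 (edgeR adjusted p = 0.0811, not called), 2 members were higher and 1 lower, and 3205 genes were higher and 3678 lower. Deviations of same-numbered libraries correlated at 0.01, -0.04 and -0.04. These values show no common deviation by number, and cannot tell whether same-numbered libraries shared a culture day or batch. Of the 72 related genes and markers called, 38 stayed called in all alternatives run on them and 0 turned. With library totals only, iron uptake had 1 higher and 5 lower, the element carriers 4 and 2, mitochondrial iron and clusters 6 and 7, haem genes 6 and 3, ferritin turnover 0 and 1, iron control 3 and 1, cytosolic cluster assembly 1 and 3, zinc genes 3 and 6, copper genes 3 and 5 and the cell death list 5 and 1. Counting error limits the tested metallothioneins other than MT2A and MT1X, at 17 to 136 counts per library.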
